A study of Mus musculus with 23 samples.

Results

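The cells described here are bone marrow droplet barcodes with the RNA of the megakaryocyte lineage, the cells that make blood platelets. They were chosen by a rule on unique molecular identifiers (UMIs), each of which tags 1 captured RNA molecule. A barcode entered the gate if it had at least 500 detected genes and at most 10% of its UMIs from mitochondrial genes, at least 1 UMI of at least 2 of the 5 markers Pf4, Gp9, Gp1bb, Itga2b and Vwf, and no UMI of Klf1, a red-cell transcription factor, or of Hlf, a stem-cell transcription factor. The gate took 3932 of 69444 bone marrow barcodes that passed the limits on genes and mitochondrial UMIs (5.66%), from a series of 139967 deposited barcodes in 16 expression libraries. Because these 7 genes chose the cells, their levels in the gate are given as a description without a test. At the edge of the rule, 2963 gated cells had exactly 2 of the 5 markers, and 11988 barcodes that otherwise passed had exactly 1.

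Megakaryocytes arise from stem and progenitor cells of the marrow under the hormone thrombopoietin, which signals through the kinase Jak2 to the transcription factors STAT5A, STAT5B and STAT3. Maturing cells copy their DNA without dividing, fill granules with clotting and growth factors, and put on their surface the adhesion receptors by which platelets later stick to a damaged vessel. Early cells of the lineage carry Itga2b and Pf4 together with progenitor genes such as Cd34 and Kit, while late cells carry Ppbp, Tubb1 and Gp6.

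The study asked how changes of a tyrosine in the SH2 domain of STAT5B, the part that binds phosphorylated tyrosine, act in mice. Bone marrow came from C57BL/6 mice (C57BL/6N in the methods of the study) aged 2 months that were wild type (WT) or carried STAT5B-Y665H or STAT5B-Y665F in the germ line, so that every cell of the animal, not only blood cells, carries the change. The labels give 2 libraries for each of the 3 genotypes and do not give the zygosity, the sex or the number of animals behind a marrow library, so p-values measure the spread between libraries. No sort for megakaryocytes is given, and large mature megakaryocytes are poorly held by droplets.

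The 6 libraries held 16399123 to 55768078 UMIs and 3866 to 18711 barcodes that passed the limits, with most barcodes in the Y665F libraries. The libraries of any pair shared 57 to 431 barcode sequences over the 15 pairs, at most 2.88% of the smaller library. In each genotype replicate 1 carried Xist at 244 to 895 UMIs per 1000000 UMIs (counts per 1000000, CPM) and replicate 2 at 0.108 to 0.586, and the Y-linked genes showed the reverse, so that the replicate number cannot be told apart from sex, whereas the methods of the study name male mice. Stat5b itself was read at 26.3 and 19.3 CPM over all WT barcodes, 16.6 and 16.7 in Y665H, and 39.6 and 49.3 in Y665F, and the Y665H and Y665F changes themselves cannot be read from gene counts.

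The gated cells lacked some defining genes of mature megakaryocytes and carried other genes of platelets. The 13 late platelet genes listed here, Treml1, F2rl2 and Rab27b among them, summed to 428, 381, 375, 237, 343 and 211 CPM in the gate of WT replicates 1 and 2, Y665H replicates 1 and 2, and Y665F replicates 1 and 2, against 21.1 to 72.2 CPM in barcodes with fewer than 2 markers. Tubb1, the platelet-specific tubulin, had 2 UMIs in 1 library and none in the other libraries, Gp6, the collagen receptor, had 2 UMIs in 1 library, and Ppbp, the most abundant platelet chemokine, had 0, 1, 4, 8, 25 and 13 UMIs in WT replicates 1 and 2, Y665H replicates 1 and 2, and Y665F replicates 1 and 2. Every list of 6 values below follows this order of libraries. Tubb1, Gp6 and Ppbp define mature megakaryocytes, so the cells are called gated cells here, and they are better described by the genes that lead them. Itgb3, the partner chain of Itga2b in the fibrinogen receptor, stood at 76.4, 27.1, 32.7, 21.1, 82.2 and 42.2 CPM, and Gp5, a subunit of the von Willebrand factor receptor, at 35.8, 38.0, 23.8, 23.5, 29.6 and 23.4 CPM. Genes with a mean of at least 20 CPM in gated WT cells, gate markers left out, were ranked by a ratio. It was the lowest ratio over the 6 libraries of gated cells to barcodes with fewer than 2 markers (called outside the gate below). The leading genes among them were F2rl2, Treml1, Cavin2, Slc35d3, Rbpms2, Serpine2, Tuba8, Itgb3, Gp5 and Rab27b. For F2rl2, a protease-activated receptor of platelets, that ratio ran from 4.39 in Y665F replicate 2 to 33.9. Cavin2 spanned 4.0 to 45.6. The contrast with other marrow barcodes was thus smallest in Y665F replicate 2.

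The share of marrow barcodes in the gate was highest in Y665F. It was 2.66% and 2.30% in the WT libraries, 2.16% and 1.86% in Y665H, and 8.11% and 9.80% in Y665F. The means were 2.48% ± 0.255 (SD, n = 2) in WT, 2.01% ± 0.210 in Y665H and 8.95% ± 1.20 in Y665F, a ratio to WT of 3.60 for Y665F and 0.810 for Y665H. The genotypes did not overlap and followed the order Y665H, WT, Y665F. The step from Y665H to WT was small, from 2.16% in Y665H replicate 1 to 2.30% in WT replicate 2. The exact binomial intervals of these libraries, 1.87 to 2.48 and 2.02 to 2.61, overlapped, and that step was not tested by itself. A two-sided exact permutation test of the order Y665H, WT, Y665F gave p = 0.0222, the smallest p that its 90 arrangements allow. The p stayed at this value under 6 of the 9 other gates tried and not under the 3 given next. With at least 3 of the 5 markers (969 cells) the shares were 0.879%, 0.612%, 0.735%, 0.333%, 2.83% and 1.57% (exact permutation p = 0.0667), and with Klf1 and Hlf not used p was 0.0667 as well; the Pf4 cut described further on gave 0.178. Thinning to 1000 UMIs gave 1.51%, 1.22%, 1.04%, 1.09%, 3.74% and 4.31% of the barcodes that deep. It left out 819, 888, 798, 1032, 2468 and 0 shallower barcodes, so the loss was unequal, with none in Y665F replicate 2.

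Pf4 in barcodes of other lineages moved with this share. Free RNA, which leaks from broken cells into droplets of other cells, and droplets with more than 1 cell cannot be told apart as its source here. Pf4, the platelet factor 4 chemokine on chromosome 5 (90772435 to 90773383 of GRCm38), had a UMI in 7.71%, 7.04%, 8.50% and 6.90% of the WT and Y665H barcodes but in 23.2% and 50.4% of those of Y665F. B-lineage barcodes, which should lack Pf4 and were picked by at least 3 of 7 B-cell genes, carried a Pf4 UMI in 8.33%, 3.29%, 4.21% and 4.28% of WT and Y665H barcodes and in 18.5% and 47.7% of Y665F barcodes. Their median depth was 1361 to 2430 UMIs, beside 1826 to 3315 over all barcodes. In Y665F replicate 1 it was 1419.5 beside 2566 UMIs, and in Y665F replicate 2 it was 2430 beside 2247. The B-lineage barcodes were thus the shallower ones in replicate 1 but not in replicate 2. The gate took 0 of 132, 2 of 517, 0 of 190 and 2 of 397 B-lineage barcodes in WT and Y665H. It took 30 of 994 in Y665F replicate 1 (3.02%, exact 95% interval 2.05 to 4.28) and 48 of 619 in Y665F replicate 2 (7.75%, 5.77 to 10.2). The 9.80% of all barcodes in Y665F replicate 2 lies inside that interval, whereas the 8.11% of replicate 1 lies above its own. Monocyte barcodes, with median depths of 6903 and 4104 UMIs, were in the gate at 3.90% (1.96 to 6.87) and 5.17% (3.04 to 8.14) in the Y665F libraries, below the shares of all barcodes in both. Neutrophil barcodes were in it at 3.8% (1.54 to 7.68) and 6.43% (3.25 to 11.2), an interval that holds the 9.80% of replicate 2. Whether the share of replicate 2 stands above the background thus depended on the cells taken as background. Intervals cover counting error only, and the part of this background in the rise of the share was not tested.

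A firmer cut, added after seeing the data, kept the gated cells with 10 or more Pf4 UMIs, called Pf4-high below. They were 1085 of the 3932 cells (27.6%) and made up 0.647%, 0.748%, 0.897%, 0.580%, 2.53% and 2.21% of the barcodes. Both Y665F values lay above the other libraries, at 3.40 times the WT mean, while WT and Y665H overlapped, so the order of the 3 genotypes gave an exact permutation p of 0.178. Among B-lineage barcodes 9 of 994 (0.905%, 0.415 to 1.71) were Pf4-high in Y665F replicate 1 and 12 of 619 (1.94%, 1.01 to 3.36) in replicate 2. The share of Pf4-high cells in replicate 2 fell inside the interval of its B-lineage barcodes, and that in replicate 1 above it. In replicate 1 the B-lineage barcodes were shallower than all barcodes, as given above. Among monocyte barcodes 2 of 282 (0.709%, 0.0860 to 2.54) were Pf4-high in replicate 1, an interval that holds its 2.53%, and 3 of 329 (0.912%, 0.188 to 2.64) in replicate 2, which holds its 2.21%. Neutrophil barcodes were Pf4-high in 0 of 184 (upper bound 1.98%) and 1 of 171 (0.585%, 0.0148 to 3.22).

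**Figure D1:**
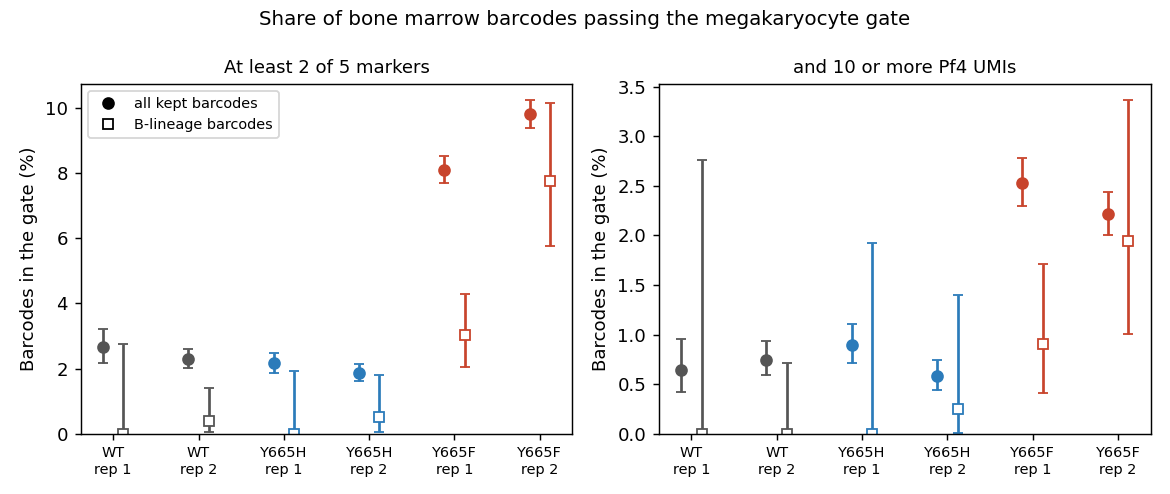
Percent of kept bone marrow barcodes (filled circles) and of B-lineage barcodes (open squares) that passed the gate in each of the 6 libraries, with exact 95% binomial intervals; the left plot is the gate of at least 2 of 5 markers and the right plot the gated cells with 10 or more Pf4 UMIs. Y665F stands at 8.11% and 9.80% on the left, and its B-lineage barcodes at 3.02% and 7.75%.

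The markers that put a cell in the gate are given here without a test. Gp9, a subunit of the von Willebrand factor receptor that appears as cells mature, had a UMI in 59.2%, 60.8%, 63.0% and 53.1% of the gated cells of WT and Y665H and in 38.2% and 13.7% of those of Y665F. Itga2b, the integrin chain that marks the lineage from early on, had a UMI in 63.1%, 55.3%, 57.5%, 54.1%, 83.6% and 85.1%. The values of Y665F lay outside the range of the other libraries for both genes, lower for Gp9 and higher for Itga2b. B-lineage barcodes had an Itga2b UMI in 1.52%, 1.16%, 2.63%, 1.26%, 6.84% and 15.2%, so Itga2b in another lineage was also higher in Y665F. The part of this background in the Itga2b values of the gate was not tested. Cells with Pf4 and Itga2b as their only markers were 20.4%, 27.8%, 22.0%, 34.2%, 37.3% and 66.2% of the gate, and cells with Pf4 and Gp9 alone were 18.4%, 31.2%, 31.0%, 33.2%, 8.80% and 6.38%. Vwf, the von Willebrand factor itself, overlapped between genotypes at 11% to 29.6% of gated cells, as did Gp1bb at 4.15% to 17.5%. Pf4 summed over the gate was 2038, 4193, 4777, 3957, 3731 and 2960 CPM, against 17.9, 51.8, 35.2, 51.4, 85.2 and 337 CPM outside the gate, where Y665F replicate 2 stood apart.

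**Figure D2:**
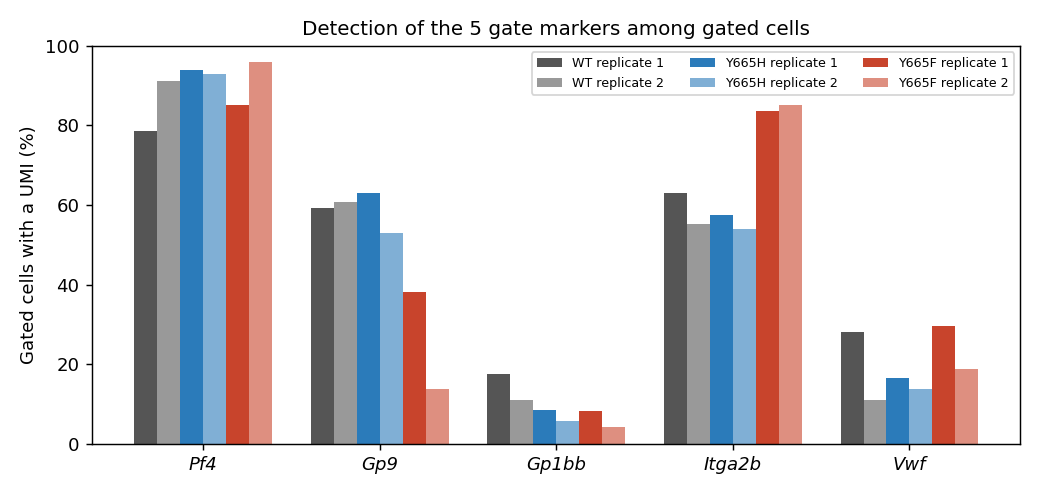
Percent of gated cells with at least 1 UMI of each of the 5 gate markers, 1 bar per library, with replicate 2 paler. Gp9 is at 53.1% to 63.0% in WT and Y665H and at 38.2% and 13.7% in Y665F, while Itga2b is at 83.6% and 85.1% in Y665F.

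Inside the gate, cells with more Pf4 carried more receptor and signalling RNA of platelets in every library, and less granule cargo in 5 of the 6. Over the 24 platelet surface receptors of the list used here, the summed level of Pf4-high cells was 1.81 to 2.31 times that of the gated cells with less Pf4. The 23 signalling proteins of platelets gave 1.45 to 1.63 times, and the 30 proteins of the platelet cytoskeleton 1.19 to 1.34 times. The 15 progenitor genes ran the other way at 0.488 to 0.829. The 34 genes of the cell cycle and of DNA copying were level or higher at 1.01 to 1.45 times, and granule cargo was 0.767 to 1.04 times, below 1 in all libraries but Y665F replicate 2. The transcription factors of the lineage summed to 2513, 2357, 2215, 2158, 3009 and 3094 CPM in Pf4-high cells and to 3295, 2484, 2300.0, 2223, 3010 and 3284 in the rest, level or lower in each library. Pf4 drew this line and all are sums over the same libraries, so these ratios are descriptions.

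In gated cells of Y665F against WT, 660 of 6756 genes tested passed an adjusted p under 0.05 and a fold change over 1 on the log2 scale (9.77%), 279 higher (4.13%) and 381 lower (5.64%). The test was edgeR's quasi-likelihood test on UMIs summed per library, with Benjamini-Hochberg adjustment over all genes tested. Its filter on low counts could be met by the libraries of 1 genotype alone, so a gene low in WT could enter through Y665F. Log2 fold changes (log2 FC) below come from this fit and levels are CPM. Over 15 lists of megakaryocyte and related genes, 37 of the 213 distinct members tested passed (17.4%), 19 higher and 18 lower. The lists hold members chosen for their part in this lineage and signalling, with earlier results of these data known. All 37 had the same sign when any 1 library was left out. The number that still passed was 37 without Y665F replicate 1 but 17 without WT replicate 1, 12 without WT replicate 2 and 12 without Y665F replicate 2. The 7 that passed without any of the 6 libraries were Socs2, Cish, Pim1, Timp3, Plac8, Rrm2 and Gins2. Of these, Socs2, Cish and Timp3 met the filter on low counts through Y665F. In bulk sums of this kind a change in the mix of cells in the gate and a change per cell cannot be told apart.

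Genes that STAT5 switches on include Socs2, Cish and Pim1, which separated Y665F from the other libraries. Of 20 STAT5 target genes, 11 were tested, of which 4 rose (Socs2, Cish, Pim1 and Mcl1), 1 fell (Ccnd1) and 6 did not pass, with a median log2 FC of 0.45 beside 0.02 over all genes tested. Over all genes 4.13% were called higher and 5.64% lower. Socs2 and Cish, low in WT and Y665H, met the filter on low counts by their Y665F levels alone. A target low in every genotype could not be tested, so this count and median are descriptions. Socs2, which feeds back on cytokine receptors (chromosome 10, 95385362 to 95417180 of GRCm38), stood at 2.39, 5.42, 4.46 and 2.35 CPM in WT and Y665H and at 79.1 and 71.9 CPM in Y665F. No library of the other genotypes came near Y665F. Its log2 FC was 4.17 ± 0.47 (SE, edgeR adjusted p = 2.8e-05). Cish, another feedback inhibitor of the same pathway, was at 2.39, 3.62, 4.46, 2.35, 27.5 and 28.2 CPM, a log2 FC of 3.13 ± 0.61 (edgeR adjusted p = 0.0026). In WT both genes stood near the floor of 3.09 CPM, 3 UMIs over the WT group, so the size of these rises is uncertain. The log2 FC of Socs2 was 3.67 without WT replicate 1 and 5.02 without WT replicate 2. Pim1, a survival kinase, was at 40.6, 28.9, 26.8, 44.6, 107 and 133 CPM, a log2 FC of 1.8 ± 0.32 (edgeR adjusted p = 0.0013).

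Mcl1, which guards cells against apoptosis, was at 23.9, 27.1, 28.3, 16.4, 54.6 and 91.3 CPM and rose by 1.48 on the log2 scale (edgeR adjusted p = 0.0084), a call lost without WT replicate 1 (1.29), WT replicate 2 (1.67) or Y665F replicate 2 (1.12) by its adjusted p. The G1 cyclin Ccnd1 went down, from 28.7 and 23.5 CPM in WT to 2.28 and 7.23 in Y665F, with 17.9 and 11.7 in Y665H. Its log2 FC was -2.45 (edgeR adjusted p = 0.0096) and it did not pass without WT replicate 1 (-2.43) or WT replicate 2 (-2.52). Of the target genes that did not pass, Bcl2l1, the survival factor of platelets, was at 9.56, 14.5, 10.4, 9.40, 17.5 and 16.9 CPM, and Myc at 153, 92.2, 103, 103, 113 and 148 CPM. In Pf4-high cells 3 of 7 tested target genes rose (Socs2, Pim1 and Mcl1), where 10.5% of the 3880 genes tested passed (5.39% higher and 5.1% lower). Socs2 there stood at 6.35, 10.0, 2.98, 0, 56.0 and 47.5 CPM, a log2 FC of 2.72 (edgeR adjusted p = 0.0055). The WT libraries held only 25 and 77 Pf4-high cells, so their Socs2 levels there rest on few UMIs. Outside the gate the change was as large, with Socs2 at 4.91, 4.4, 2.26, 2.21, 104 and 88.3 CPM, and 9 of 19 tested targets higher and 1 lower where 17.2% of all genes passed (8.49% higher and 8.66% lower). The difference between the Socs2 change in gated cells and outside the gate was -0.02 on the log2 scale (edgeR adjusted p = 1.0), so a difference between gated cells and the rest was not called for Socs2.

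**Figure D3:**
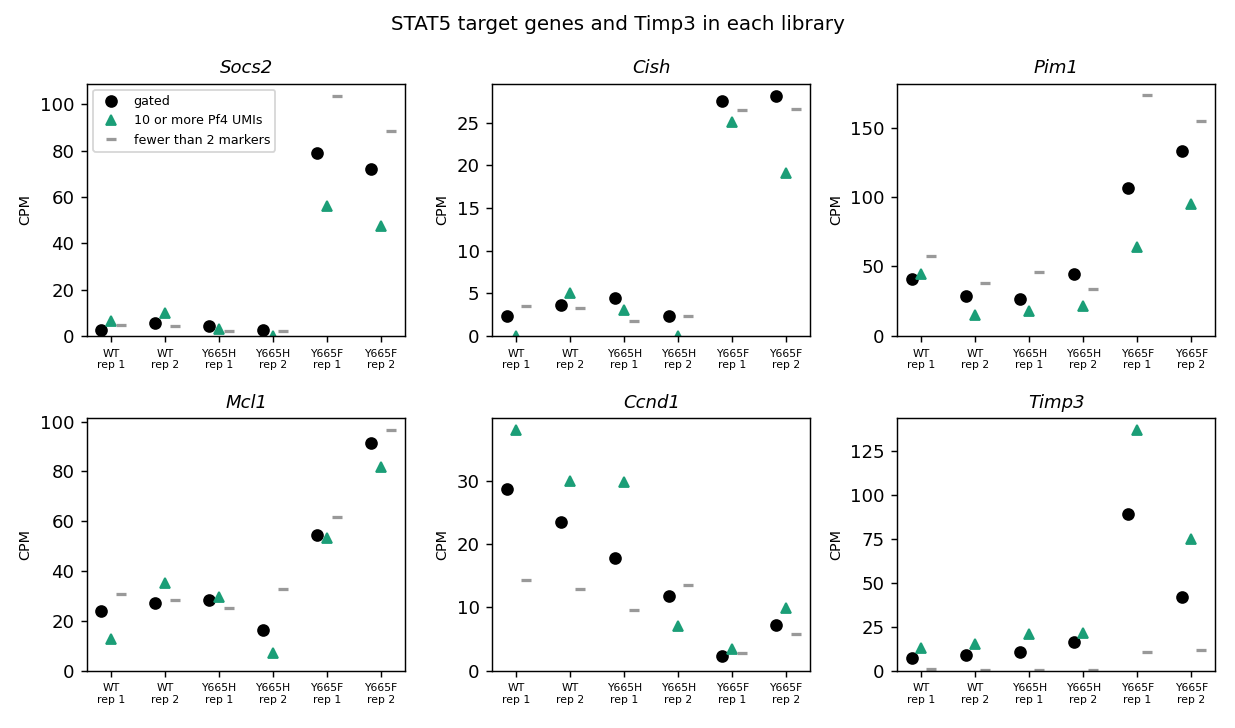
CPM of 5 STAT5 target genes and of Timp3 in each library, in gated cells (black circles), Pf4-high cells (green triangles) and barcodes with fewer than 2 markers (grey dashes), on linear axes from 0. Socs2 reads 79.1 and 71.9 in gated Y665F cells and at most 5.42 in the other gated libraries.

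Upstream of STAT5, 16 of 22 genes of thrombopoietin and cytokine signalling were tested, of which 1 rose, none fell and 15 did not pass, with a median log2 FC of 0.56. That count is near the share over all genes tested, 9.77% called and 4.13% higher. Csf2rb, the shared beta chain of the receptors for IL-3, IL-5 and GM-CSF, was at 0, 3.62, 1.49, 9.40, 18.8 and 25.3 CPM and rose by 3.37 on the log2 scale (edgeR adjusted p = 0.011). That call was lost without WT replicate 1 (2.46) or Y665F replicate 2 (3.18). Csf2rb met the filter on low counts by its Y665F levels, and WT stood at 0 and 3.62 CPM, so the size of its rise is uncertain. Jak2 was at 23.9, 27.1, 25.3, 11.7, 30.7 and 43.4 CPM, and Stat5b at 19.1, 16.3, 16.4, 2.35, 32.1 and 51.7 CPM, neither of which passed. Outside the gate 4 of 22 rose, Csf2rb among them, beside 8.49% higher over all genes there.

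A few surface receptors of platelets fell in gated Y665F cells. Of 24, 12 were tested, of which 3 fell (Cd9, F2rl2 and F2rl3) and none rose, with a median log2 FC of -0.67. Over all genes tested 5.64% were called lower and 4.13% higher. Cd9, a tetraspanin of the platelet surface (chromosome 6, 125460266 to 125494791), was at 397, 629, 591, 388, 289 and 143 CPM, with both Y665F libraries below the rest. Its log2 FC was -1.27 ± 0.32 (edgeR adjusted p = 0.014), and it did not pass without WT replicate 2 (-0.79) or Y665F replicate 2 (-0.81). F2rl2, a cofactor receptor for thrombin, was at 90.8, 61.4, 69.9, 30.5, 47.6 and 25.9 CPM, overlapping Y665H. Its fall of -1.02 (edgeR adjusted p = 0.043) was lost without WT replicate 1 (-0.85), WT replicate 2 (-1.22) or Y665F replicate 2 (-0.61). F2rl3, a signalling thrombin receptor of mouse platelets, was at 26.3, 18.1, 26.8, 9.40, 7.21 and 5.52 CPM, a log2 FC of -1.77 (edgeR adjusted p = 0.033), lost without any of WT replicate 1 (-1.62), WT replicate 2 (-1.96), Y665F replicate 2 (-1.54) and Y665H replicate 1 (-1.79). In Pf4-high cells 1 of 7 tested receptors passed, near the 10.5% over all genes there. It was Cd9 at 647, 1126, 825, 684, 480 and 290 CPM, so of the 3 falls that of Cd9 was also called there.

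Outside the gate the receptors did not fall, with 6 of 20 tested higher and none lower, beside 8.49% higher and 8.66% lower over all genes there. Cd9 was there at 32.2, 42.9, 30.1, 34.5, 66.5 and 56.7 CPM, and its change in gated cells was 1.86 lower on the log2 scale than outside (edgeR adjusted p = 1e-11). Treml1, a granule-stored receptor of platelets, was at 81.2, 74.1, 68.4, 21.1, 63.6 and 22.4 CPM in the gate and did not pass there, whereas its difference from outside the gate was -2.03 (edgeR adjusted p = 8.3e-04). Itgb3 differed likewise by -1.52 (edgeR adjusted p = 0.0054). Pf4 was higher in all Y665F barcodes and in those of the B lineage, as given above, and the part of this background in these differences was not tested.

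Granule proteins split. Of 17 cargo proteins, 9 were tested, of which 1 rose and 3 fell, with a median log2 FC of 0.36. Over all genes tested 4.13% were called higher and 5.64% lower. Timp3, an inhibitor of matrix metalloproteinases (chromosome 10, 86300372 to 86349506), was at 7.17, 9.04, 10.4 and 16.4 CPM in WT and Y665H and at 89.0 and 41.7 CPM in Y665F. It rose by 2.98 ± 0.51 (SE) on the log2 scale (edgeR adjusted p = 0.0011) and by 3.03 in Pf4-high cells (edgeR adjusted p = 2.1e-04), where it read 12.7, 15.0, 20.8, 21.2, 137 and 74.6 CPM. Timp3 met the filter on low counts in the gate through its Y665F levels. Its WT levels rest on few UMIs in both sets of cells, so the size of its rise is uncertain. Outside the gate Timp3 was nearly absent in WT and Y665H, at 0.266 to 0.851 CPM, and at 10.7 and 11.9 CPM in Y665F. Its level thus stood highest in Pf4-high Y665F cells, although the difference of the genotype change inside and outside the gate did not pass (edgeR adjusted p = 0.47).

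Serpine2, an inhibitor of thrombin held in platelet granules, was at 81.2, 134, 107, 58.7, 47.2 and 37.5 CPM, a log2 FC of -1.38 ± 0.30 (edgeR adjusted p = 0.0052) that did not pass without WT replicate 2 (-0.86). Its change lay 2.00 below that outside the gate (edgeR adjusted p = 7.6e-06). Tgfb1, the growth factor that platelets release in quantity, was at 509, 455, 436, 263, 259 and 213 CPM and fell by 1.03 on the log2 scale (edgeR adjusted p = 0.015), a call lost without WT replicate 2 (-1.03) or Y665F replicate 2 (-0.85). Apoe, a lipid carrier, was at 569, 421, 442, 338, 304 and 171 CPM and fell by 1.04 (edgeR adjusted p = 0.02), lost without WT replicate 1 (-0.94), WT replicate 2 (-1.18) or Y665F replicate 2 (-0.65). The remaining cargo included Srgn, the proteoglycan that packs granules, at 865, 755, 671, 580, 1190 and 1056 CPM, which did not pass. Among 20 genes that build granules 18 were tested and 1 rose, near the 4.13% called higher over all genes. It was Lyst, the sorting protein lost in Chediak-Higashi syndrome, at 14.3, 16.3, 19.3, 18.8, 28.8 and 43.8 CPM (log2 FC 1.21, edgeR adjusted p = 0.045). That call was lost without WT replicate 1 (1.02), WT replicate 2 (1.40) or Y665F replicate 2 (0.94).

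**Figure D4:**
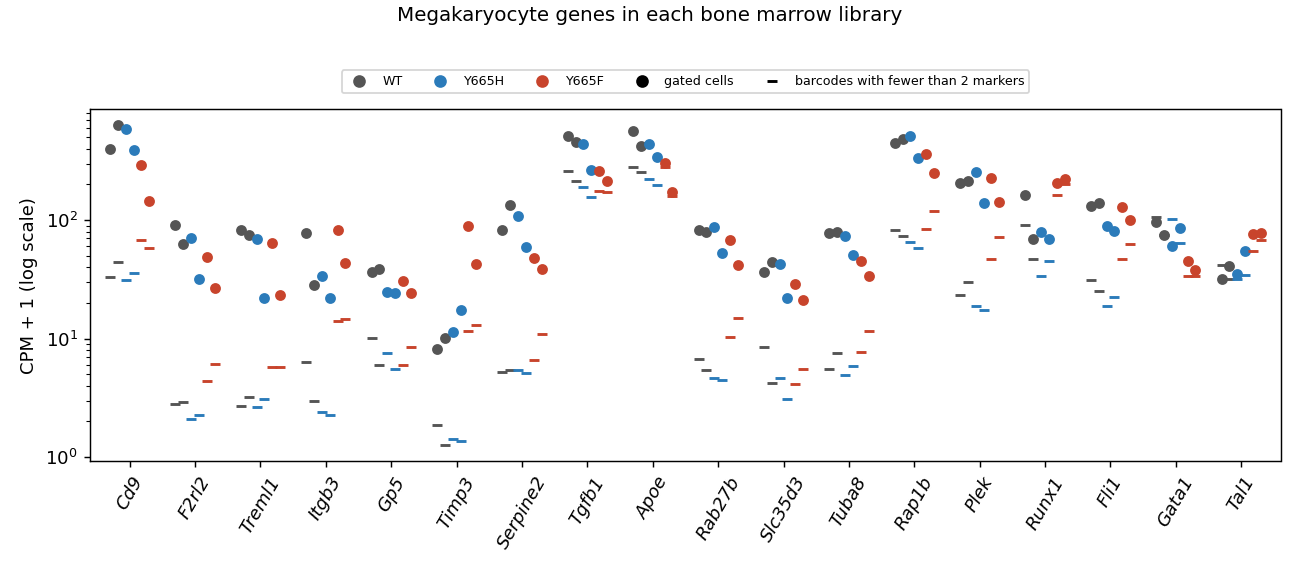
CPM + 1 on a log axis of 18 megakaryocyte genes in each of the 6 libraries, as circles for gated cells and dashes for barcodes with fewer than 2 markers. Cd9, Serpine2 and Tuba8 of Y665F lie below those of the other libraries among the circles but not among the dashes, and Timp3 of Y665F lies above in both.

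Of 30 cytoskeletal genes 24 were tested, with 2 lower and none higher, near the 9.77% over all genes, and a median log2 FC of -0.12. Cfl1, which severs actin filaments, was at 1281, 1500, 1492, 1182, 699 and 510 CPM, a log2 FC of -1.21 (edgeR adjusted p = 0.0046), and was equally low outside the gate at 666 and 503 CPM in Y665F. It did not pass without WT replicate 2 (-1.01) or Y665F replicate 2 (-0.96). Tuba8, an alpha tubulin that leads the gate, was at 76.4, 77.7, 72.9, 49.3, 43.8 and 32.9 CPM, a log2 FC of -1.01 (edgeR adjusted p = 0.02), lost without WT replicate 2 (-0.92) or Y665F replicate 2 (-0.78). Myh9, the heavy chain of nonmuscle myosin, was at 122, 88.6, 78.9, 79.9, 175 and 172 CPM and passed in Pf4-high cells (log2 FC 1.08, edgeR adjusted p = 0.021). Over the whole gate Myh9 did not pass, and the difference between the groups of cells was not tested.

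Of 23 signalling genes 22 were tested, with 3 called, near the same background, 1 higher (Itpr1) and 2 lower (Lat and Rgs10) and a median log2 FC of -0.03. Lat, the adaptor below the collagen receptor, was at 93.2, 83.1, 101, 61.1, 56.5 and 28.3 CPM, a log2 FC of -1.05 (edgeR adjusted p = 0.033), lost without WT replicate 1 (-1.08), WT replicate 2 (-1.05) or Y665F replicate 2 (-0.59). Plek, a major substrate of protein kinase C in platelets, was at 203, 211, 254, 139, 226 and 142 CPM and did not pass, nor did Rap1b, the small GTPase that activates the fibrinogen receptor, at 444, 481, 507, 334, 363 and 249 CPM. None of 15 signalling genes tested in Pf4-high cells passed.

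Of 27 factors of the lineage 24 were tested, with 3 called, near the 9.77% over all genes, of which Myb and Tal1 rose and Gata1 fell, with a median log2 FC of 0.32. Gata1, the factor that drives maturation of both megakaryocytes and red cells, was at 95.6, 74.1, 59.5, 84.6, 44.6 and 37.1 CPM, a log2 FC of -1.04 (edgeR adjusted p = 0.017). Its call was lost without WT replicate 1 (-0.98), WT replicate 2 (-1.15) or Y665F replicate 2 (-0.87), and in Pf4-high cells (-0.54). Myb, which holds progenitors in cycle, was at 179, 152, 128, 155, 284 and 457 CPM and rose by 1.15 on the log2 scale (edgeR adjusted p = 0.011), lost without WT replicate 2 (1.11) or Y665F replicate 2 (0.83). Tal1, a partner of Gata1, was at 31.1, 39.8, 34.2, 54.0, 75.7 and 76.9 CPM and rose by 1.07 (edgeR adjusted p = 0.026), lost without WT replicate 1 (0.82) or WT replicate 2 (1.36). Fli1, which favours the megakaryocyte over the red-cell fate, was at 131, 139, 87.8, 79.9, 128 and 98.4 CPM and did not pass.

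Of 15 progenitor genes 13 were tested and 3 rose (Plac8, Cd34 and Myb), with none lower and a median log2 FC of 0.49. Over all genes tested 4.13% were called higher. Outside the gate 6 of 15 rose and none fell, with a median of 0.89, where 8.49% of all genes were called higher. The list summed there to 1881, 1984, 1576, 1851, 3538 and 3986 CPM, so the rise was not particular to gated cells. Plac8, a gene of early myeloid progenitors, was at 557, 511, 515, 536, 1344 and 1834 CPM, a log2 FC of 1.56 ± 0.25 (edgeR adjusted p = 7.8e-04). Both Y665F libraries lay far above the rest. Cd34, the surface marker of progenitors, was at 47.8, 61.4, 58.0, 58.7, 82.5 and 172 CPM and rose by 1.17 (edgeR adjusted p = 0.021), lost without WT replicate 1 (0.91), WT replicate 2 (1.47) or Y665F replicate 2 (0.61). The same 3 genes were called in Pf4-high cells, with Plac8 at 501, 260, 217, 487, 723 and 1161 CPM there. Kit, the stem cell factor receptor, was at 136, 59.6, 53.6, 72.8, 110 and 177 CPM in the gate and did not pass. Of 13 late genes of platelets 9 were tested, with 1 lower, F2rl2, none higher and a median log2 FC of -0.56. That count is near the 9.77% called over all genes.

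Cell-cycle genes moved in both directions. Of 34 genes 31 were tested, with 3 higher (Cenpf, Mki67 and Ube2c) and 4 lower (Rrm2, Gins2, Ccnb2 and Tyms) and a median log2 FC of 0.19. Over all genes tested 4.13% were called higher and 5.64% lower. The genes that fell include those that make DNA building blocks. Rrm2, a subunit of ribonucleotide reductase, was at 139, 101, 129, 96.3, 29.4 and 34.2 CPM, a log2 FC of -1.90 ± 0.26 (edgeR adjusted p = 1.3e-04). Gins2, of the replicative helicase, was at 93.2, 103, 72.9, 58.7, 35.3 and 26.6 CPM, a log2 FC of -1.68 ± 0.27 (edgeR adjusted p = 7.8e-04). Both Y665F libraries were below all others for both genes. Mki67, a marker of cycling cells, was at 78.8, 77.7, 87.8, 134, 129 and 234 CPM and rose by 1.19 on the log2 scale (edgeR adjusted p = 0.015), lost without WT replicate 1 (1.09), WT replicate 2 (1.26) or Y665F replicate 2 (0.76). Outside the gate 6 of 34 fell and none rose, beside 8.66% lower and 8.49% higher over all genes there, with Rrm2 at 253, 206, 286, 171, 36.4 and 41.7 CPM. Of 14 survival genes 10 were tested, with Mcl1 higher and Bak1, a pore-forming death protein, lower at 57.3, 38.0, 29.8, 18.8, 24.7 and 19.4 CPM (log2 FC -1.09, edgeR adjusted p = 0.031), a call lost without WT replicate 1 (-0.90), WT replicate 2 (-1.30) or Y665F replicate 2 (-0.88).

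Of 23 genes of immune-type megakaryocytes 12 were tested and 1 rose, near the 9.77% called over all genes. It was the leukocyte phosphatase Ptprc, at 45.4, 52.4, 43.2, 32.9, 78.2 and 123 CPM (log2 FC 1.01, edgeR adjusted p = 0.028). Ptprc did not pass when any of WT replicate 1 (0.81), WT replicate 2 (1.21), Y665F replicate 2 (0.70), Y665H replicate 1 (0.99) or Y665H replicate 2 (0.98) was left out. Of 20 interferon-induced genes 9 were tested and none passed. Of 16 immediate-early and heat-shock genes, which also respond to cell handling, 13 were tested, with 4 called beside 9.77% of all genes, Egr1, Fos and Jund higher and Ier2 lower, and a median log2 FC of 0.60. Fos was at 9.56, 54.2, 38.7, 56.4, 42.5 and 176 CPM and lost its call without WT replicate 1 (0.86) or Y665F replicate 2 (0.33). Egr1 was at 19.1, 36.1, 11.9, 21.1, 56.2 and 165 CPM, highest in Y665F replicate 2, and was not called without WT replicate 1 (1.47) or Y665F replicate 2 (1.0).

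Markers of other marrow cells moved with the genotype inside the gate. Of 12 neutrophil markers 9 were tested, with 8 higher in Y665F, none lower and a median log2 FC of 4.97. Over all genes tested 4.13% were called higher and 5.64% lower. Markers at or near 0 in WT, such as Lcn2 and Ltf, met the filter on low counts only through libraries where they were high. This count and median are therefore descriptions. S100a8, an abundant calcium-binding protein of neutrophils, was at 16.7, 3.62, 10.4, 371, 418 and 392 CPM, high in Y665H replicate 2 as well as in both Y665F libraries. The summed neutrophil list ran at 619 and 385 CPM in WT, 647 and 1955 in Y665H and 2148 and 2226 in Y665F, and outside the gate at 988 to 1498 CPM in WT and Y665H and 5319 and 2914 in Y665F. In Pf4-high cells the sum was 920, 190, 241, 353, 441 and 1188 CPM, and neither of the 2 neutrophil genes tested there passed against WT, whereas both (Elane and Mpo) were called higher in Y665F than in Y665H. Prg2, the major basic protein of eosinophils, was at 0 in both WT libraries and at 274 and 33.9 CPM in Y665F, at least 49.9-fold higher against a floor of 3 UMIs over the WT group by the mean, which replicate 1 carries, and at least 10.97-fold by Y665F replicate 2 alone. The eosinophil list as a whole summed to 0 and 0 CPM in WT, 2.98 and 2.35 in Y665H, and 284 and 37.5 in Y665F. It was 3.38 and 91.7 CPM in the Pf4-high cells of the Y665F libraries and 466 and 15.5 in their other gated cells, so the libraries ran opposite ways. In replicate 1, 4 of the 1363 gated cells had at least 2 of its genes at 2 or more UMIs.

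Red-cell markers were at their lowest in Y665F. The erythroid list summed to 2401, 1364, 1939, 2098, 583 and 821 CPM, with 2 of 6 tested lower (Car1 and Epor) and none higher. For this and the lists below, 4.13% of all genes tested were called higher and 5.64% lower. Car1, the carbonic anhydrase of young red cells, was at 1555, 712, 1054, 1328, 165 and 255 CPM, a log2 FC of -2.41 ± 0.31 (edgeR adjusted p = 1.1e-04), and it was lower outside the gate too, at 3663, 4652, 5415, 4020, 671 and 380.5 CPM. Of 9 B-cell markers 7 were tested, with Ebf1 and Vpreb3 higher and Cd79b lower, and the list summed to 86.0 to 233 CPM. Stem-cell markers had 3 of 4 tested higher (Cd34, Ly6a and Mycn) and summed to 183 to 221 CPM in WT and Y665H and to 344 and 457 in Y665F. Outside the gate 6 of 9 were called higher, Hlf among them, where 8.49% of all genes were. The sum there was 127 to 207 CPM in WT and Y665H and 454 and 564 in Y665F. The gate rule sets Hlf to 0 in gated cells, so the stem-cell counts and sums inside and outside the gate are not alike. Monocyte, T and natural killer cell, basophil and mast cell and plasmacytoid dendritic cell markers had none of 4, 2, 1 and 3 tested called. The T and natural killer list summed to 260, 584, 357, 388, 270 and 261 CPM in the gate, above the 151 to 227 CPM outside it in each library. Most of that was Nkg7, a granule protein of killer cells, at 256, 515, 351, 376, 246 and 245 CPM, whereas the T-cell genes Cd3e and Cd8a were at 0 and Cd3d had 1 UMI in each Y665F library. Gated cells with at least 2 UMIs of each of at least 2 genes of another lineage were 19.4%, 7.59%, 25%, 15.8%, 13.8% and 22.9% of the gate, and taking them out left a share of 2.15%, 2.13%, 1.62%, 1.57%, 6.99% and 7.56%.

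By the fixed rule for named genes, the 10 largest rises of Y665F against WT were Prg2, Lcn2, Ltf, Camp, S100a8, Retnlg, Ngp, S100a9, Socs2 and Ebf1. All but Socs2 and the B-cell factor Ebf1 are genes of neutrophils or eosinophils. The calls of Lcn2 and Ngp were lost without WT replicate 2 (9.36 and 4.96) and that of Retnlg without Y665F replicate 2 (4.06). Lcn2 and Ltf were at 0 in WT and at least 11-fold and 7.75-fold higher in Y665F against the same floor. The 10 largest falls were Gm39469, Ccnd1, Gm46620, Car1, Aldoa, Tmem120a, Cd81, Nutf2, Zfp524 and Sertad3. Of these, Ccnd1 and Gm39469 (-2.65) were lost without WT replicate 1, Ccnd1, Gm39469 (-2.60), Gm46620 (-2.19), Zfp524 (-1.49) and Sertad3 (-1.60) without WT replicate 2, and Gm39469 (-2.20), Zfp524 (-1.63) and Sertad3 (-1.75) without Y665F replicate 2. Cd81, a tetraspanin like Cd9, was at 373, 434, 440.5, 350.1, 115 and 73.8 CPM, a log2 FC of -2.11 ± 0.29 (edgeR adjusted p = 1.2e-04). Aldoa (ENSMUSG00000030695), a glycolytic aldolase, was at 755, 636, 713, 414, 183 and 99.7 CPM, a log2 FC of -2.29 (edgeR adjusted p = 1.1e-04). Both were as low in Y665F outside the gate, where Cd81 read 91.9 and 69.4 CPM and Aldoa 182 and 105. For 25 of the 660 genes called in gated cells the change differed from that outside the gate, and for 635 a difference was not called. Over all 12807 genes in that test 130 differed (1.02%).

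Few or no genes passed between Y665H and WT in gated cells, depending on the setting. Of 6756 genes tested by edgeR 0 passed (0%), 260 had an unadjusted p under 0.05, and DESeq2 called 0. Other settings did call genes, with 7 under a replicate block, 6 with no filter on low counts, 3 each with at least 1000 detected genes, with doublet scores and with Klf1 and Hlf not used, and up to 9 with 1 library left out (without Y665H replicate 1). None of the list members passed, and the medians of the 15 megakaryocyte and related lists lay between -0.44 and 0.11 on the log2 scale beside -0.01 over all genes tested. The neutrophil list, high in Y665H replicate 2, had a median of 4.41. The 5 genes of smallest p were Ngp, Camp, S100a8, Ube2c and Birc5, none of them called. Ngp, a neutrophil granule protein, was at 4.78 and 5.42 CPM in WT and 17.9 and 604 in Y665H, so that replicate 2 alone was high, and its adjusted p by edgeR was 0.091. Without Y665H replicate 1 the log2 FC of Ngp was 7.0 and passed, with the lone Y665H library assumed to vary like the other genotypes, and without Y665H replicate 2 it was 1.83 and did not. Ube2c, the ubiquitin carrier of the mitotic exit complex, was at 38.2 and 28.9 CPM in WT and 81.8 and 89.3 in Y665H (log2 FC 1.45, edgeR adjusted p = 0.39). Birc5, a mitotic regulator, was at 54.9, 59.6, 131 and 127 CPM in the same libraries (log2 FC 1.25, edgeR adjusted p = 0.56). Neither gene passed over all genes tested. Both were picked for their small p, so the lack of overlap between their libraries adds no support. Without Y665F replicate 2, which enters the fit through the shared spread, Ube2c passed (1.46, edgeR adjusted p = 0.040), and Ngp, Camp and S100a8 passed without either Y665F library, with log2 FC from 4.39 to 6.0. With 340 WT and 396 Y665H cells in the gate, changes of moderate size may have been below what this depth can show.

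Y665F against Y665H gave 958 calls among 6756 genes (14.2%), 517 higher (7.65%) and 441 lower (6.53%) in Y665F. This comparison shares its Y665F libraries with the one against WT. STAT5 targets had 4 of 11 tested higher (Socs2, Cish, Pim1 and Mcl1) and none lower. Socs2 and Cish met the filter on low counts by their Y665F levels alone, so this count is a description. Socs2 gave a log2 FC of 4.27 ± 0.47 (edgeR adjusted p = 1.7e-05) and Cish 2.83 ± 0.57 (edgeR adjusted p = 0.0024). Cytokine signalling had 7 of 16 tested higher, with Csf2rb, Kit, Stat3 and Stat5b among them, and none lower. Csf2rb too met the filter on low counts through Y665F, and Stat5b rested on few UMIs in Y665H replicate 2. The count for cytokine signalling is therefore a description as well. Transcription factors had 8 of 24 higher, with Erg, Gata2, Myb and Runx1 among them, and none lower. Progenitor genes had 5 of 13 higher (Cd34, Gata2, Kit, Myb and Plac8). For these lists the calls with 1 library left out are not given. Cell-cycle genes had 5 of 31 lower (Ccnb2, Cdk1, Gins2, Rrm2 and Tyms) and none higher. Receptors had 1 of 12 higher (Itga6) and 2 lower (Cd9 and F2rl3). By the rule for named genes the largest rises were Retnlg, Prg2, Slfn2, Socs2, Epb41l4b, Plxdc2, Zbtb18, Mon2, Cish and Fam193b, and the largest falls Igkv14-126, Rhd, Car1, Gm4316, Ccnb1ip1, Zfp524, Tmem120a, Sertad3, Gdf3 and Cd81. Without Y665H replicate 1 the calls of Plxdc2 (2.92), Igkv14-126 (-7.17), Gm4316 (-1.65), Ccnb1ip1 (-2.0), Zfp524 (-2.07), Tmem120a (-1.98), Sertad3 (-2.47) and Gdf3 (-1.78) were lost, without Y665H replicate 2 those of Fam193b (2.06) and Sertad3 (-2.07), and without Y665F replicate 2 those of Plxdc2 (3.24) and Sertad3 (-2.01). Slfn2, a schlafen family gene of immune cells, was at 1.49 and 0 CPM in Y665H and 32.3 and 19.8 in Y665F, with 7.17 and 1.81 in WT (log2 FC 4.68 ± 0.88, edgeR adjusted p = 0.0015). Its Y665H levels lay below the floor of 2.73 CPM, 3 UMIs over the Y665H group, and those of Socs2 and Cish lay near it. The size of these rises is therefore uncertain. Rhd, the red-cell Rh antigen, was at 38.7 and 44.6 CPM in Y665H against 2.85 and 7.80 in Y665F (log2 FC -3.05, edgeR adjusted p = 4.9e-04).

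Whether the Y665F effect differed between gated cells and Klf1-positive cells was tested against barcodes with at least 1 Klf1 UMI, no Hlf UMI and fewer than 2 gate markers. Klf1 marks the red-cell lineage, which shares a precursor with megakaryocytes. The change of Y665F against WT differed for 109 of 11729 genes (0.929%), 16 higher (0.136%) and 93 lower (0.793%) in gated cells than in Klf1-positive cells. Serpina3g, a serine protease inhibitor of a family of close copies that can share reads, was at 213, 54.2, 64.0, 39.9, 308 and 149 CPM in gated cells and at 4.20, 1.38, 2.44, 1.21, 41.0 and 69.2 CPM in Klf1-positive cells, a difference of -3.33 ± 0.38 on the log2 scale (edgeR adjusted p = 1.6e-07). Gated cells of WT already carried it, while Klf1-positive cells of WT were near 0. The Klf1-positive barcodes were not alike between genotypes, with Car1 at 6161 and 8979 CPM in WT and 2201 and 691 CPM in Y665F, and the neutrophil gene Camp at 0.420 and 1.54 CPM in WT and 95.03 and 332 CPM in Y665F. The part of this in the differences was not tested. The chains of the nitric oxide receptor Gucy1a1 and Gucy1b1 gave -4.13 (edgeR adjusted p = 8.5e-04) and -4.34 (edgeR adjusted p = 0.022). The value of Gucy1a1 ranged from -7.07 without WT replicate 1, which leaves the WT Klf1-positive cells at 0, to -3.50 without Y665F replicate 2. Gucy1a1 was at 38.2, 21.7, 32.7, 23.5, 39.7 and 29.3 CPM in gated cells and at 0.420, 0, 0.116, 0, 3.78 and 8.19 CPM in Klf1-positive cells. The call of Gucy1b1 was lost without WT replicate 1 (-4.11), WT replicate 2 (-4.51) or Y665F replicate 2 (-3.38). In the other direction, Ube2c was at 38.2, 28.9, 81.8, 89.3, 62.0 and 83.3 CPM in gated cells and at 149.7, 142, 145, 139, 95.5 and 107 in Klf1-positive cells, a difference of 1.77 ± 0.27 (edgeR adjusted p = 2.9e-05).

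The same test against all barcodes outside the gate, added after seeing the data, called 130 of 12807 genes (1.02%), 74 higher (0.578%) and 56 lower (0.437%) in gated cells. Restricted to Pf4-high cells it called 44. Rab27b, a GTPase of granule release, had a difference of -1.62 (edgeR adjusted p = 5.7e-04) from 81.2, 77.7, 86.3, 51.7, 66.8 and 40.9 CPM inside and 5.70, 4.44, 3.67, 3.44, 9.41 and 13.9 outside. For Rab27b the Y665F barcodes outside the gate were higher than those of WT and Y665H, and Pf4 was higher there too. The part of the Pf4 background in the Rab27b difference was not tested.

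**Figure D5:**
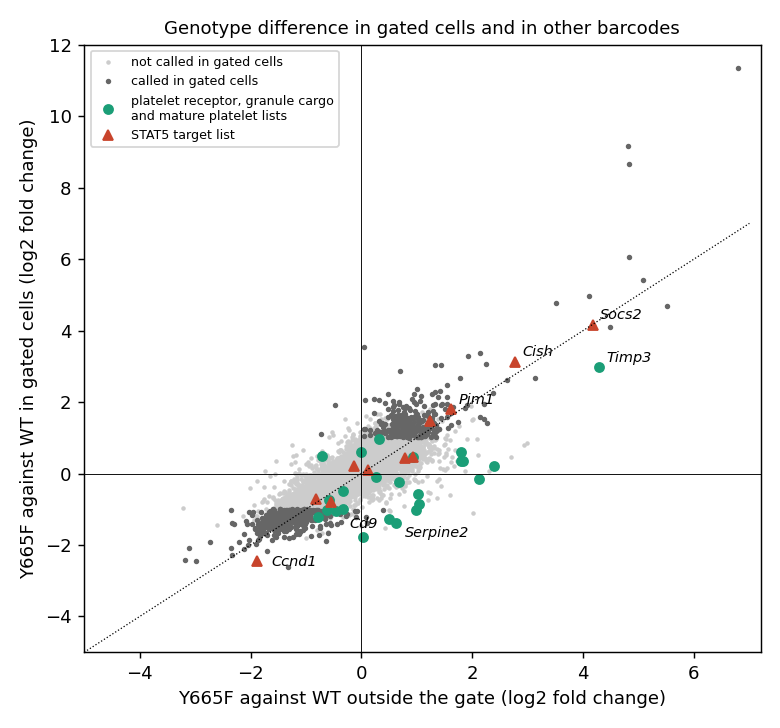
Log2 fold change of Y665F against WT for each gene tested in gated cells (vertical axis) and in barcodes with fewer than 2 gate markers (horizontal axis), with the dotted line marking equal change. Socs2 (4.17 in the gate) lies near the line, whereas Cd9 (-1.27) and Serpine2 (-1.38) lie below it.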

How the data were processed

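Bone marrow libraries were made on the 10x Genomics platform, and the authors deposited matrices of raw UMI counts per gene and barcode, aligned to the mouse genome mm10 (GRCm38) with Cell Ranger (5.0 per the labels, 6.0.0 per the file headers). The labels name a 3′ kit and the study's methods a 5′ kit. Every column of the matrices used here belonged to a labelled sample (0 without).

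Gated UMIs were summed per library in Python 3.11.15 and tested in R 4.3.3 with edgeR 4.0.16 (TMM, filterByExpr, quasi-likelihood, all 3 genotypes in 1 fit, Benjamini-Hochberg adjustment). A call needed adjusted p under 0.05 and over 1 on the log2 scale. The interaction was fitted over 12 sums with the library as a block. Scripts were tested on simulated data. DESeq2 1.42.0 was an alternative, and doublet scores were another since none were deposited. CPM is UMIs per 1000000 UMIs of those cells. Depth of the gate was 418576 to 5270620 UMIs per library, which limits WT and Y665H most. Shares were compared with a two-sided exact permutation test.

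Named genes were, per contrast, up to 10 rises and 10 falls among calls without overlap of libraries and with a mean of at least 20 CPM in the higher genotype, leaving out gate and sex-linked genes, or the 5 of smallest p where fewer than 5 were called, and 5 a direction for the interaction. Any list member could be named. Gene positions are from GENCODE. The members and lists were chosen with earlier results of these data known. Floors are 3 UMIs. Some genes are not reported here.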

Additional observations from a re-analysis of the deposited data

Results flagged for a closer look

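Genes were singled out where the Y665F against WT change differed between gated cells and Klf1-positive cells by the interaction test of edgeR. On the log2 scale the difference was 2.41 for Hist1h2ak and 1.96 for Hist1h2af, histone genes with near-identical copies that can share reads, 2.08 for Ctse, a protease of red-cell precursors, 1.77 for Ube2c and 1.75 for Cdc20, both of the mitotic exit complex. It was -4.34 for Gucy1b1, -4.13 for Gucy1a1, -4.01 for Tie1, an endothelial and stem-cell receptor, -3.33 for Serpina3g and -2.96 for Cavin3, a coat protein of caveolae. Serpina3g, Gucy1a1 and Ube2c passed without any 1 library, although Gucy1a1 moved from -7.07 (without WT replicate 1) to -3.50 (without Y665F replicate 2). Hist1h2ak was not called without WT replicate 1 (3.12) or WT replicate 2 (2.18), Hist1h2af without WT replicate 1 (1.23) or Y665F replicate 2 (1.88), Ctse without WT replicate 1 (2.19) or Y665F replicate 2 (1.55), Cdc20 without WT replicate 1 (1.78), WT replicate 2 (1.76) or Y665F replicate 2 (1.38), Tie1 without WT replicate 1 (-2.99) or Y665F replicate 2 (-2.69), and Cavin3 without WT replicate 1 (-2.75).

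Pf4 appeared in barcodes where it was not looked for. B-lineage barcodes had a Pf4 UMI in 18.5% (Y665F replicate 1) and 47.7% (Y665F replicate 2), above the 8.33% and 3.29% of the WT libraries.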

How the results depend on the processing

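The share test moved off its smallest p with at least 3 markers or without Klf1 and Hlf (both 0.0667) and with 10 or more Pf4 UMIs (0.178), and with any 1 library left out it was 0.0667, the smallest that design allows. Calls of Y665F against WT numbered 404 by DESeq2 (73 higher, 331 lower, against 279 and 381), 407 in Pf4-high cells, 155 there without Y665F replicate 2 and 589 without Y665F replicate 1, and 222 with at least 3 markers. Leaving out 1 library gave 153 (without WT replicate 2) to 1148 (without Y665F replicate 1), and 227 without Y665F replicate 2. Calls of Y665H against WT numbered 3 with Klf1 and Hlf not used, with at least 1000 genes and with doublet scores, 6 with no filter, and 0 to 9 without 1 library. Calls of Y665F against Y665H numbered 588 by DESeq2, 427 in Pf4-high cells, 301 with at least 3 markers and 387 to 1437 without 1 library. The interaction called 68 in Pf4-high cells, 50 with at least 3 markers and 35 to 472 without 1 library. The cause was not tested. Without a filter on low counts the median of all genes moved by more than 0.1 on the log2 scale, to 0.34. Over the 90 named gene results no alternative turned a direction; 1283 values stayed on their side of the threshold, 268 dropped below it and 26 rose above it. Replicate numbers coincide with sex but did not pair the libraries (correlations of deviations 0.073, -0.084 and 0.135); with the replicate block the calls were 776, 7 and 999 for the 3 contrasts in the order above. Depth limits WT most, with 340 gated cells.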
